A study of Dunaliella viridis with 39 samples.

Results

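A set of 67 loci, out of 18495 in the count table of the green alga Dunaliella viridis strain dumsii, was high in cells without a nitrogen source and also high in cells that had been in glutamine for 51 h. The loci were chosen by their measured levels. Read counts were divided by a size factor per library, averaged over the 3 libraries of a group, and compared as log2 ratios with 10 added to each mean. A locus was kept where no nitrogen was at least 4-fold over nitrate at both 27 and 51 h, where its mean without nitrogen at 27 h was at least 100 normalized counts, where glutamine was at least 2-fold over nitrate at 51 h, and where the log2 ratio of glutamine to nitrate at 3 h was above -1. Contrasts among those 7 groups therefore chose the loci and are described below without a test. Contrasts with a single arm among those groups are also described without a test, since the choice of loci bears on that arm.

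Cells of an inoculum grown on nitrate were moved into medium with 5 mM KNO3, 5 mM L-glutamine, 5 mM L-glutamate or no added KNO3, under continuous light, and RNA was taken 3, 27 and 51 h after the transfer. With the inoculum this made 13 groups of 3 libraries. The groups are called nitrate, glutamine, glutamate, no nitrogen and inoculum. The experiment was done 3 times, which gives each group 3 biological replicates, and each culture was duplicated within a repeat. The sources used here do not say how duplicates were combined. Glutamate was meant, per the labels, as a control for starvation next to an amino acid that is stable and that the alga does not use. The cells are a single strain, and RNA was taken from whole cells in bulk, so a higher level in each cell and a larger share of cells with the transcript cannot be told apart.

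In green algae the loss of nitrogen is known to slow growth, to lower the photosynthetic machinery and to turn carbon towards starch and neutral lipid, while genes for the uptake and recycling of other nitrogen compounds are switched on. Ammonium, whether taken up, made from nitrate or released from an amino acid, enters metabolism when glutamine synthetase joins it to glutamate. Glutamine is thus both the first product of nitrogen assimilation and, where a cell can take it up or split it, a nitrogen source. The files give loci by number and do not pair the numbers with gene names, so no role is given for any locus and none of the pathways named here was tested as a gene list.

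Total counts per library ran from 3342102 to 41114965 with a median of 10192407, and all 67 loci passed the filter on low counts. Libraries were normalized to the make-up of their counts, and 3 of them stood apart. The 10 most abundant loci took 18.2% of the counts in nitrate 3 h replicate 2 and 17.5% in glutamate 51 h replicate 3, against 40.4% to 59.6% in the 36 libraries that did not stand apart. In no nitrogen 51 h replicate 1, 15777 loci had a count, while those 36 libraries had 17719 or more. Without these 3 libraries the rule finds 68 loci, of which 66 are among the 67, and each of the 6 tests below called the same number of loci. Libraries were sequenced in 2 runs.

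Taken over all 67 loci, the level was low in every nitrate library, low in glutamine until 27 h and high in glutamine at 51 h. The median normalized count of the 67 loci was 88.1 to 107.6 in the inoculum libraries. In nitrate it was 66.8 to 71.8 at 3 h, 43.8 to 48.1 at 27 h and 51.7 to 59.6 at 51 h. In glutamine it was 41.9 to 53.0 at 3 h, 63.4 to 81.6 at 27 h and 287.5 to 309.4 at 51 h, so each library of the last time lay above each library of the earlier times. Without nitrogen the median was 70.4 to 94.9 at 3 h, 448.6 to 499.2 at 27 h and 558 to 606.7 at 51 h. In glutamate it was 71.1 to 97.9, 451.4 to 540.1 and 515.7 to 614.6 at the same times. The libraries of glutamine at 51 h thus lay between nitrate and the media without a usable nitrogen source, and the ranges of glutamate and no nitrogen overlapped at every time.

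**Figure D1:**
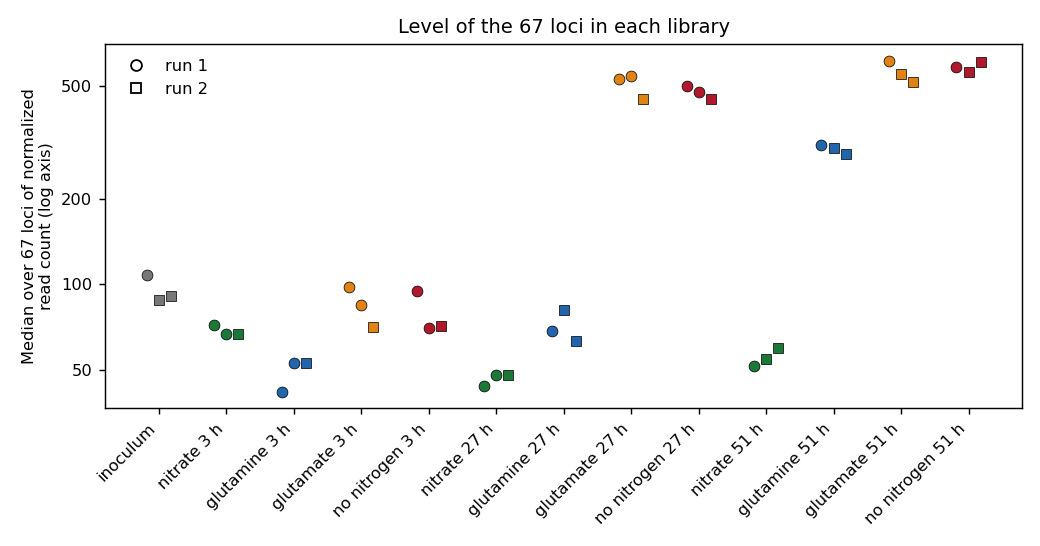
Median over the 67 loci of the normalized read count (y axis, log scale) in each of the 39 libraries, by group (x axis); circles are libraries of run 1 and squares those of run 2. Glutamine at 27 h lies at 63.4 to 81.6, just above nitrate, and at 51 h at 287.5 to 309.4, below both glutamate and no nitrogen.

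The loci together took a small share of the reads, which differed by medium. Their summed normalized counts were 11611 ± 1966 in the inoculum (SD, n = 3) and 6620 ± 290.2 in nitrate at 27 h. The sum was 9487 ± 595.1 in glutamine at 27 h and 39280 ± 1327 at 51 h. It was 55517 ± 2518 without nitrogen at 27 h and 62935 ± 1459 at 51 h. As a share of all counts the 67 loci held 0.0460% to 0.0938% in nitrate at 51 h and 0.271% to 0.420% in glutamine at the same time.

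Within the set, the ratio of no nitrogen to nitrate at 27 h had a median of 7.33-fold, and single loci ran from a log2 ratio of 2.06 for Locus_3469 to 4.88 for Locus_203. At 51 h the median was 7.69-fold, with the highest log2 ratio, 5.54, at Locus_253. The ratio of glutamine to nitrate at 51 h had a median of 3.94-fold and ran from 1.01 for Locus_10176 to 5.18 for Locus_12170 on the log2 scale. These values were used to choose the loci. Over all loci tested the same log2 ratios had medians of 0.08, 0.01 and -0.01.

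**Figure D2:**
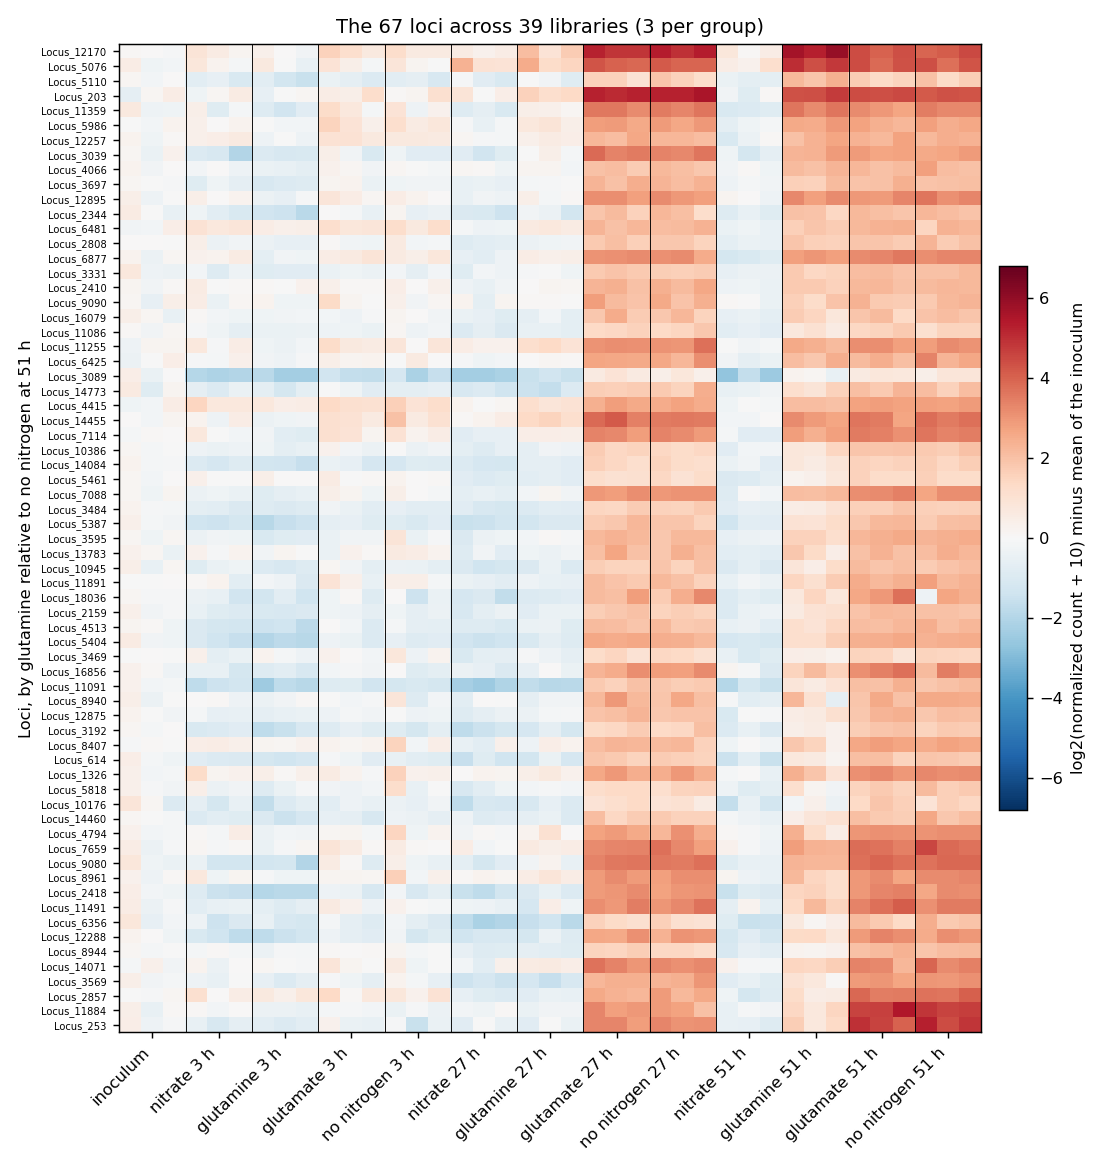
Each row is a locus and each column a library (3 per group, in the order of replicates); colour gives log2(normalized count + 10) minus the locus' mean in the inoculum. Rows are ordered by the ratio of glutamine to no nitrogen at 51 h, from Locus_12170 (log2 ratio 1.45) at the top to Locus_253 (-3.61) at the bottom; the columns of glutamate and no nitrogen at 27 and 51 h are red in nearly every row.

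The levels per transcript length were compared with TPM, the transcripts-per-million values that the authors deposited. Without nitrogen at 27 h the 67 loci had a median of 31.1 TPM, against 6.35 TPM over all loci tested. Ordered by TPM, with rank 1 the most abundant of all loci, their median rank was 11553 in nitrate at 27 h and 1835 without nitrogen. Locus_5110 was the most abundant of them without nitrogen at 27 h, at a mean of 296.8 TPM and rank 242, and Locus_203 followed at 274.4 TPM and rank 256. Length itself, read from the ratio of counts to TPM in units of the typical locus, had a median of 1.61 in the set, 1.51 in the 6198 loci with a mean of at least 100 normalized counts without nitrogen at 27 h, and 0.997 over all loci tested. The upper quartile was 3.05 in the set and 2.23 in the 6198 loci, and the lower quartiles were 1.03 and 0.995.

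The first question outside the rule was whether these loci also moved in glutamate, whose libraries were not used to choose them. From 3 to 27 h in glutamate all 67 loci rose. Over all loci tested 15.7% were called higher and 15.9% lower in this comparison. The median log2 fold change was 2.43 in the set and 0.04 over all loci tested, and 66 of the 67 rose at least 2-fold. The test was edgeR's quasi-likelihood test, with adjusted p under 0.05 as the threshold, and the largest adjusted p among the 67 was 0.000116. It was known from these data, when the set was chosen, that glutamate gave levels like those without nitrogen, so the rise in glutamate is not independent support for the set.

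The largest rises in glutamate were those of Locus_203 and Locus_12170. Locus_203 stood at 90.6, 84.7 and 150.3 normalized counts in the 3 glutamate libraries of 3 h and at 2662, 2355 and 2656 at 27 h. The groups lay far apart, and the log2 fold change was 4.53 (SE 0.31, edgeR adjusted p = 1.17e-13). Locus_12170 stood at 36.5, 24.2 and 14.9 normalized counts at 3 h and at 578.2, 448.9 and 451.4 at 27 h. All libraries of 27 h were again above those of 3 h, and its log2 fold change was 4.38 (SE 0.29, adjusted p = 6.47e-14 by edgeR). When run 1 was fitted alone, 67 loci were called. Run 2 held 1 library of each group and gave no fit.

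Against the inoculum, glutamate at 27 h showed the same direction: 67 loci were higher and 0 lower by edgeR, also at an unadjusted p under 0.05, where 13.3% of all loci tested were called higher and 13.4% lower. The median log2 fold change was 2.52 in the set and 0.03 over all loci tested. Locus_12170 had the largest, at 6.47 (SE 0.37, edgeR adjusted p = 1.24e-15), from 6.41, 6.30 and 4.64 normalized counts in the inoculum. Locus_203 followed at 5.25 (SE 0.32, edgeR adjusted p = 1.00e-14), from 35.9, 67.1 and 91.1 normalized counts. The smallest rise was that of Locus_3089, which stood at 594.4, 323.1 and 440.3 normalized counts in the inoculum and at 680.2, 840.5 and 681 in glutamate at 27 h. Its groups did not overlap, and the log2 fold change was 0.69 (SE 0.23, adjusted p = 0.0217 by edgeR). With run 1 alone 60 loci were called and with run 2 alone 66, all of them higher.

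Cells in glutamine were far below this level at 27 h. Set against glutamate at the same time, 67 loci were lower in glutamine and 0 higher by edgeR, also at an unadjusted p under 0.05. Of all loci tested 15.8% were called lower and 16.4% higher. Glutamate was known, when the set was chosen, to give levels like those without nitrogen, so this count is not independent support either. The median log2 fold change was -2.69 in the set and -0.10 over all loci tested, and each of the 67 was at least 2-fold lower, from -1.61 at Locus_6481 to -5.02. Within run 1 there were 66 called and within run 2 there were 67, all lower in glutamine.

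Locus_253 stood at 6.86, 18.7 and 11.1 normalized counts in glutamine at 27 h and at 284.7, 279 and 201.7 in glutamate. The glutamine libraries were at the level of nitrate at 27 h, which was 7.30, 18.4 and 10.1. Its log2 fold change between the amino acids was -4.45 (SE 0.39, edgeR adjusted p = 3.78e-11). Locus_11491 stood at 1.14, 23.8 and 10.2 normalized counts in glutamine and at 211.4, 178.8 and 261.1 in glutamate. The groups lay apart although its glutamine libraries spread widely, and the log2 fold change was -4.38 (SE 0.40, edgeR adjusted p = 9.35e-11).

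Against the inoculum, the loci in glutamine at 27 h split. Of the 67, 6 rose, 20 fell and 41 did not pass the test by edgeR, where 2.33% of all loci tested were called higher and 3.15% lower. The median log2 fold change was -0.35 in the set and -0.01 over all loci tested. With limma on TPM values the split was 4 higher and 1 lower at a pseudocount of 1, and also 4 and 1 at 0.1. Those values move the median of all loci by 0.18 and 0.22 on the log2 scale. Within run 2 edgeR called 4 higher and 5 lower, and run 1 held 1 library of each group and gave no fit. The count of 26 was 17 without glutamine 27 h replicate 3 and 16 without inoculum replicate 1, with 6 higher in both cases. In nitrate at 27 h, also after transfer from the inoculum, 39 of the 67 had all 3 libraries below the inoculum and 3 had all above, against 12.3% and 12.5% of all loci. Nitrate at 27 h enters the rule as a low arm, which favours the count of 39, and this contrast was not tested.

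Among the loci that rose in glutamine by 27 h were Locus_5076 and Locus_203. Locus_5076 stood at 88.4, 46.2 and 50.5 normalized counts in the inoculum and at 385.4, 156.5 and 183.6 in glutamine at 27 h. The lowest glutamine library was above the highest inoculum library, and the log2 fold change was 1.96 (SE 0.39, edgeR adjusted p = 0.00101). In nitrate at 27 h this locus was at 342.9, 125.2 and 119.9, which overlaps glutamine. Locus_203 stood at 199, 146.3 and 173.8 normalized counts in glutamine at 27 h, all above nitrate, where it was at 118.2, 60.8 and 88.7. Against the inoculum its log2 fold change was 1.37 (SE 0.30, edgeR adjusted p = 0.00300), and within run 2 it was 0.99 and did not pass (adjusted p = 0.0847).

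Among the loci that averaged at least 10 CPM (counts scaled to the library size) over both groups, the largest falls were those of Locus_11091 and Locus_6356. Locus_11091 stood at 279.3, 203.5 and 212.3 normalized counts in the inoculum and at 64.0, 54.4 and 56.3 in glutamine at 27 h. The groups lay far apart, and its log2 fold change was -1.99 (SE 0.21, adjusted p = 1.36e-08 by edgeR). Locus_6356 stood at 249.8, 92.3 and 121.2 normalized counts in the inoculum and at 41.2, 49.3 and 32.8 in glutamine, at a log2 fold change of -1.98 (SE 0.34, adjusted p = 0.000185 by edgeR). In nitrate at 27 h Locus_11091 was lower still, at 39.4, 33.1 and 48.1 normalized counts, with no overlap with glutamine. Locus_6356 was at 35.0, 23.9 and 27.9 there, which overlaps glutamine.

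**Figure D3:**
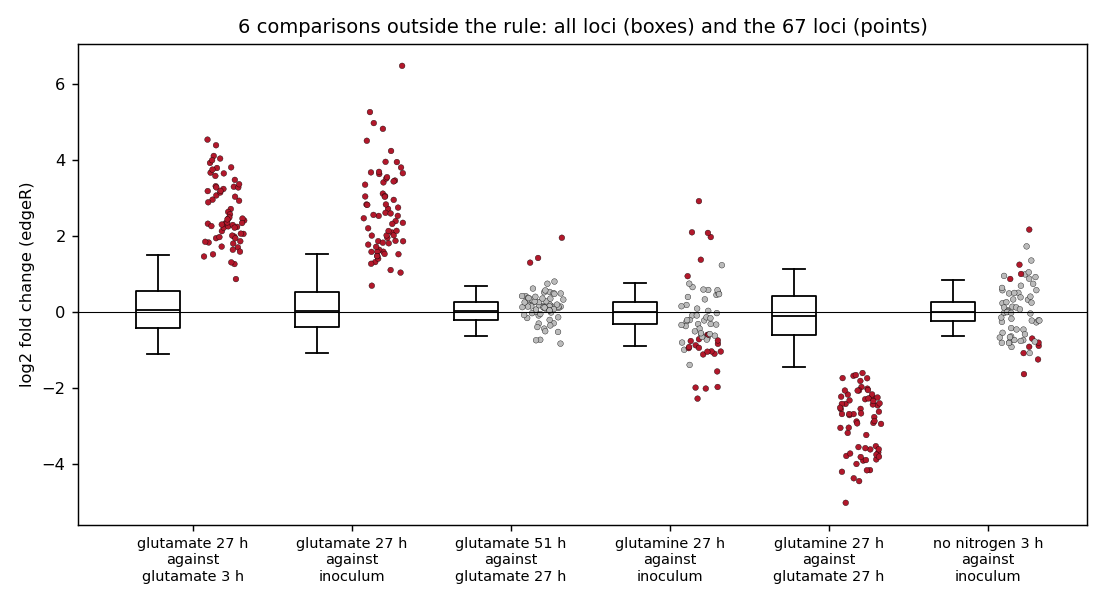
log2 fold change by edgeR (y axis) in the 6 comparisons whose groups the rule did not use (x axis); boxes give the quartiles of all 17569 loci tested, with the median as a line and whiskers at the 5th and 95th percentiles, and points are the 67 loci, red where called and grey where not. In glutamate at 27 h all points lie above 0 and in glutamine against glutamate all lie below 0, while the other 3 clouds straddle 0.

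Glutamine at 27 h was slightly above nitrate at the same time, and this is given as a description because nitrate at 27 h enters the rule. The median ratio was 1.31-fold, and 64 of the 67 loci had a higher mean in glutamine. All 3 glutamine libraries were above all 3 nitrate libraries in 34 loci and below them in 0, where 6.14% of all loci tested lay above and 5.11% below. On a scale from nitrate (0) to no nitrogen (1), taken on log2 values, the 67 loci in glutamine at 27 h had a median position of 0.142. The lowest position was -0.0657 at Locus_8940 and the highest 0.357 at Locus_6481, followed by Locus_4415.

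Locus_6481 stood at 153.2, 132.6 and 137.6 normalized counts in nitrate at 27 h, at 267.6, 285.7 and 251.4 in glutamine, and at 767.6, 794.3 and 907.8 without nitrogen. Its 3 groups did not overlap. Locus_4415 stood at 275.8, 228.3 and 262.6 in nitrate, at 538.6, 423.5 and 469.6 in glutamine, and at 1425, 1658 and 1422 without nitrogen, again with no overlap. Locus_11884, near the other end, was at 13.1, 11.1 and 16.9 in nitrate and at 9.15, 11.9 and 12.0 in glutamine, which overlap.

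By 51 h the position of glutamine between nitrate and no nitrogen had a median of 0.649, from 0.303 at Locus_11884 to 1.39 at Locus_12170. All groups behind this position enter the rule, and its limit on glutamine at 51 h removed loci with low positions. The higher median than at 27 h is thus partly built into the choice of loci. In glutamine itself the level at 51 h was a median of 3.29-fold that at 27 h. All glutamine libraries of 51 h were above all of 27 h in 63 of the 67 loci and below in 0, where 13% and 14.7% of all loci tested were, and 65 loci were higher in each of the 3 replicate pairs. Compared with the inoculum, glutamine at 51 h was higher in all libraries in 60 loci and lower in 0, with 11.5% and 12% of all loci. Glutamine at 51 h enters the rule as a high arm, which favours the counts of 63, 65 and 60. They are therefore not independent support for the set. Against nitrate at 51 h, which the rule used, the glutamine libraries were all higher in 66 loci and lower in 0, where 11.2% and 13.8% of all loci tested were, and nothing is read from this count. The exception was Locus_8940, at 103.1, 39.0 and 5.85 normalized counts in glutamine and 12.4, 4.36 and 5.71 in nitrate. A single glutamine library carries most of its mean.

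Most of the 67 loci stayed below the level of cells without nitrogen. At 51 h glutamine was at a median of 0.501 times the level of no nitrogen, with 60 loci below and 7 above. The 3 glutamine libraries were all below the 3 no nitrogen libraries in 50 loci, where 14.1% of all loci tested were, and all above in 3, where 15.6% were. Against glutamate at 51 h they were all below in 49 loci and all above in 3, with 19.1% and 17.7% of all loci. Both comparisons use the same glutamine libraries. The rule asked for at least 4-fold over nitrate without nitrogen and only 2-fold in glutamine at 51 h, which favours the count of 50. Glutamate was known to give levels like those without nitrogen, which favours the count of 49. Neither count is independent support for the set. Paired by replicate number, the median log2 difference of glutamine from no nitrogen was -0.76, -1.03 and -0.93 in replicates 1, 2 and 3.

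A small group was as high or higher in glutamine at 51 h than in any other medium. The mean was highest in glutamine in 6 loci, Locus_203, Locus_5076, Locus_5110, Locus_5986, Locus_11359 and Locus_12170, which are named here after their values were seen. This count is given without its share over all loci, and glutamine at 51 h chose the loci, so nothing is read from it. In Locus_12170 the glutamine libraries were at 784.4, 610.1 and 949.5 normalized counts, the glutamate libraries at 330.3, 243.2 and 314.9, and the no nitrogen libraries at 235.8, 263.6 and 339.4. The lowest glutamine library was above the highest library of both other media, and nitrate was at 16.6, 6.55 and 12.3. Locus_5076 was at 2204, 1438 and 1922 in glutamine and at 1419, 911.3 and 1358 without nitrogen, so that the groups lay close without overlap. Its glutamate libraries were at 1496, 973.5 and 1382, which overlaps glutamine across repeats, while within each of the 3 repeats glutamine was the higher. Locus_5110 was at 3159, 2512 and 3605 in glutamine, above all glutamate libraries at 2202, 1631 and 1940, and overlapped no nitrogen at 2632, 1660 and 2113, again with glutamine the higher within each repeat. The means of the remaining 3 in glutamine were 1.04 to 1.18 times those without nitrogen and 1.03 to 1.47 times those in glutamate. In Locus_203 all glutamine libraries were above all no nitrogen libraries but overlapped glutamate. In Locus_11359 they were above all glutamate libraries but overlapped no nitrogen, and in Locus_5986 they overlapped both.

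At the other end stood loci whose level in glutamine at 51 h was far below that without nitrogen. Locus_253 was at 81.4, 37.0 and 63.5 normalized counts in glutamine, at 10.4, 9.82 and 5.71 in nitrate and at 1119, 618.2 and 826.2 without nitrogen. Locus_11884 was at 59.7, 32.9 and 61.9 in glutamine, at 8.28, 14.2 and 12.3 in nitrate and at 746, 613.5 and 666.7 without nitrogen. In both loci the 3 media formed separate groups, with the glutamine libraries far closer to nitrate in normalized counts. Their log2 ratios of glutamine to no nitrogen, among the values the ordering used, were -3.61 and -3.48.

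**Figure D4:**
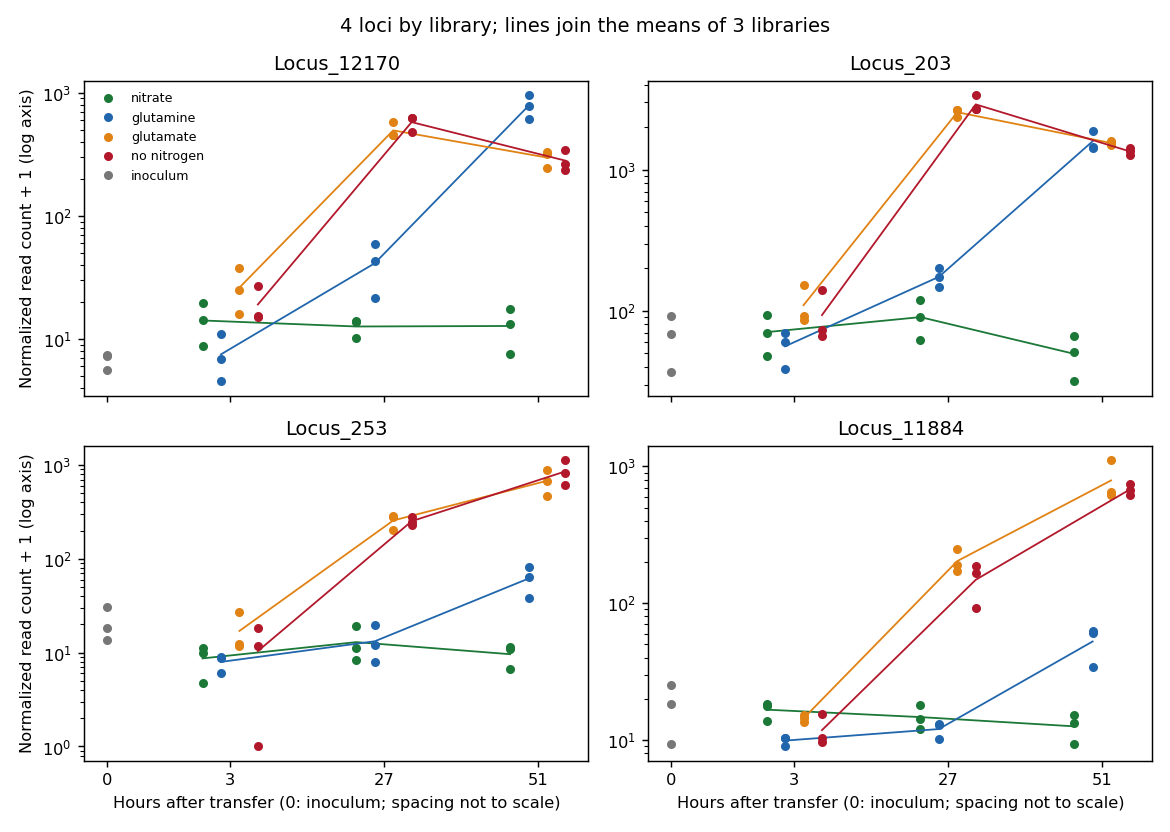
Normalized read count plus 1 (y axis, log scale) of 4 loci in each library against the sampling time (x axis, spacing not to scale); lines join the means of the 3 libraries of a medium, and the point at the bottom for Locus_253 is a no nitrogen library with 0 counts. Locus_12170 and Locus_203 are high by 27 h in glutamate and no nitrogen and have lower means there at 51 h, when the glutamine mean is above them; Locus_253 and Locus_11884 are higher still at 51 h in glutamate and no nitrogen, with glutamine far below.

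Between 27 and 51 h in glutamate few of the loci moved further. By edgeR 3 rose, 0 fell and 64 did not pass the test, where 0.125% of all loci tested were called higher and 0.114% lower. At an unadjusted p under 0.05 there were 7 higher and 3 lower, and DESeq2 called 3, of which 2 were among those of edgeR, and gave no adjusted p for 18 of the 67. The median log2 fold change was 0.14 in the set and 0.01 over all loci tested. The 3 that rose were Locus_11884, Locus_253 and Locus_2857, of which the last is named after its values were seen.

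Locus_11884 stood at 247.4, 171.7 and 187.6 normalized counts in glutamate at 27 h and at 614.6, 645.5 and 1106 at 51 h. The groups lay apart, and the log2 fold change was 1.95 (SE 0.22, edgeR adjusted p = 1.98e-06). Locus_253 stood at 284.7, 279 and 201.7 at 27 h and at 887.1, 681 and 464.8 at 51 h, at a log2 fold change of 1.41 (SE 0.29, adjusted p = 0.0198 by edgeR). Locus_2857 stood at 169.1, 144.9 and 132.8 at 27 h and at 441.3, 321.9 and 334.2 at 51 h, at a log2 fold change of 1.29 (SE 0.27, adjusted p = 0.0228 by edgeR). Locus_11884 was the locus called most firmly. Without any one library of the 2 groups 1 or 2 loci were called, and Locus_253 lost its call when any of 5 of the 6 libraries was left out (adjusted p 0.0648 to 0.146). Within run 1 and within run 2 none of the 67 was called, with Locus_11884 at log2 fold changes of 1.56 and 2.19.

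Loci with a high ratio of 51 to 27 h in glutamate tended to be those lowest in glutamine relative to no nitrogen. Over the 67 loci, the log2 ratio of 51 to 27 h in glutamate and the log2 ratio of glutamine to no nitrogen at 51 h had a Pearson's r of -0.72 and a Spearman's rho of -0.60. This is a description over loci, which share libraries and are not independent replicates, and carries no test. Glutamate at 51 h is the numerator of the first ratio and no nitrogen at 51 h the denominator of the second. These groups had close levels, so a negative relation can follow from the make-up of the ratios alone. It was -0.77 and -0.66 without the 3 libraries that stood apart. In the 6198 loci at or over 100 normalized counts without nitrogen at 27 h it was -0.49 and -0.51, so the relation was not limited to this set. The same groups enter the ratios there, and how far the relation goes beyond that was not tested.

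**Figure D5:**
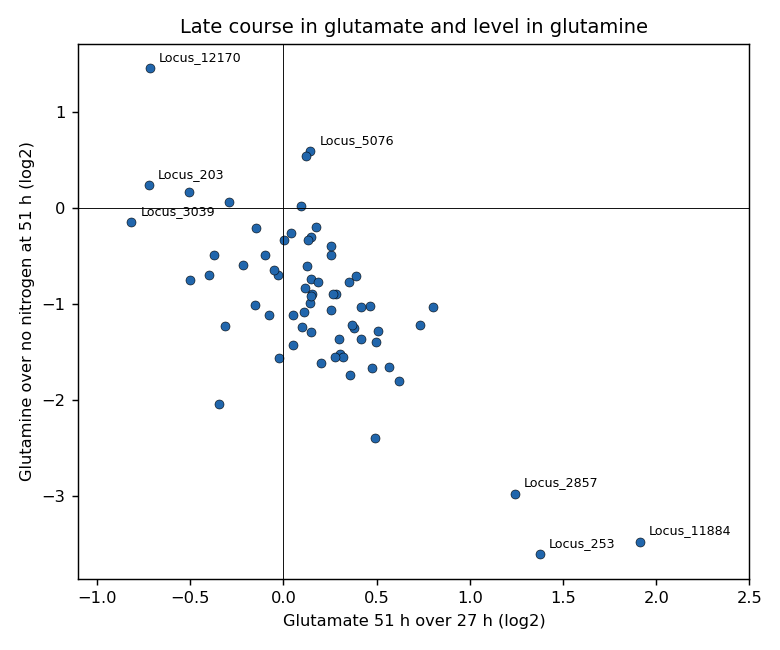
Each point is 1 of the 67 loci; the x axis gives the log2 ratio of 51 to 27 h in glutamate and the y axis the log2 ratio of glutamine to no nitrogen at 51 h. Locus_253, Locus_11884 and Locus_2857 lie at the lower right and Locus_12170 at the upper left, with Pearson's r of -0.72 over all points.

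Paired by replicate number, glutamine was higher at 51 than at 27 h in all 3 pairs in 65 loci and lower in all 3 in 0, where 21.9% of all loci tested were higher and 25.1% lower. The choice of loci by glutamine at 51 h favours that count of 65. In glutamate 35 of the 67 loci were higher in every pair and 12 lower, where 22.1% and 19.6% of all loci were. Without nitrogen these were 33 and 6, with 14.8% and 16.9% of all loci, and in nitrate 17 and 6, with 16.7% and 17.5%. No nitrogen and nitrate at 27 and 51 h all enter the rule, so the choice of loci bears on the counts in these media too. In glutamate the count of 12 lower loci was near the share over all loci, so nothing is read from it. Locus_12170 was at 578.2, 448.9 and 451.4 normalized counts in glutamate at 27 h and at 330.3, 243.2 and 314.9 at 51 h. The 2 groups did not overlap, and the log2 fold change of -0.75 (SE 0.24) did not pass the test (edgeR adjusted p = 0.228). In glutamine the same locus was at 58.3, 20.4 and 42.1 at 27 h.

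At 3 h without nitrogen the set had not yet moved together. Against the inoculum 4 loci rose, 7 fell and 56 did not pass the test by edgeR, where 0.951% of all loci tested were called higher and 1.21% lower. The median log2 fold change was -0.03 in the set and 0.00 over all loci tested. With limma on TPM values the split was 1 higher and 0 lower at a pseudocount of 0.1, and 0 were called at a pseudocount of 1, where the median of all loci moved by 0.19 and 0.16. Within run 1 there were 6 called, all lower, and within run 2 none. The count of 11 was 7 without inoculum replicate 1. This comparison, that of glutamine and that of glutamate at 27 h share the inoculum libraries.

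Locus_4415 rose from 188.3, 205.6 and 338.7 normalized counts in the inoculum to 749.7, 462.3 and 552.6 without nitrogen at 3 h (log2 fold change 1.24, SE 0.20, edgeR adjusted p = 0.000128). In nitrate at 3 h it was also above the inoculum, at 680.1, 391.5 and 400.2. Locus_6481 rose from 139.6, 146.9 and 233.8 to 395, 272 and 393.6 (log2 fold change 0.99, SE 0.19, adjusted p = 0.00136 by edgeR), and was at 343.6, 287.3 and 305.9 in nitrate. Both were thus high at 3 h with and without nitrate. The other 2 that rose, named after their values were seen, were Locus_14455 and Locus_5986, with log2 fold changes of 2.16 and 0.86.

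Locus_3089 had the largest fall at 3 h, from 594.4, 323.1 and 440.3 normalized counts in the inoculum to 196.5, 92.8 and 144.2 without nitrogen (log2 fold change -1.64, SE 0.24, edgeR adjusted p = 2.64e-05). Nitrate at 3 h was at 105.7, 93.7 and 103.3. Locus_11091 fell from 279.3, 203.5 and 212.3 to 93.0, 105.6 and 95.1 (log2 fold change -1.25, SE 0.20, adjusted p = 9.51e-05 by edgeR), next to 62.6, 79.6 and 90.4 in nitrate. In glutamate, a different medium, both loci were above the inoculum at 27 h. In nitrate at 3 h all libraries were below the inoculum in 22 of the 67 loci and above in 6, with 8.38% and 9.57% of all loci tested.

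Glutamine at 3 h, by contrast with 51 h, was the medium with the lowest levels. The median log2 ratio of glutamine to glutamate at 3 h was -0.62 in the set, against 0.01 over all loci tested. The rule bounds the ratio to nitrate from below, at -1 on the log2 scale, and the median was -0.35, against -0.01 over all loci tested. All glutamine libraries were below all nitrate libraries in 28 loci and above in 0, with 4.83% and 3.74% of all loci. They were below glutamate in 42 loci and above in 0, with 6.27% and 7.38% of all loci, and below no nitrogen in 40 and above in 0, with 6.74% and 8.86%. The same glutamine libraries enter all 3 counts. Between no nitrogen and nitrate at 3 h, 12 loci were higher in all libraries and 0 lower, with 3.17% and 3.44% of all loci. Between glutamate and nitrate at 3 h these were 12 and 1, with 3.44% and 4.14%.

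Glutamate and no nitrogen gave close levels for these loci at every time. Against nitrate, all glutamate libraries were higher in 67 loci at 27 h, where 25.4% of all loci tested were higher and 23.4% lower, and also in 67 at 51 h, with 25.9% and 24.2%. Nitrate at 27 and 51 h enters the rule as a low arm, and glutamate was known to give levels like those without nitrogen. Nothing is therefore read from these counts of 67. The median log2 ratio of glutamate to no nitrogen was 0.11 at 3 h, 0.03 at 27 h and -0.01 at 51 h. At 3 h their libraries overlapped in all 67 loci, where 3.64% of all loci tested lay higher in glutamate and 3.4% lower without overlap. At 27 h the libraries of the 2 media did not overlap in 6 loci, 5 higher in glutamate and 1 lower, where 2.97% and 2.85% of all loci tested did so. At 51 h this held for 1 locus in each direction, with 4.39% and 2.9% of all loci. The widest difference at 51 h was at Locus_18036, named after its values were seen, with a log2 ratio of 1.11. Its no nitrogen libraries were at 17.2, 215.4 and 173.2 normalized counts, and the low one is no nitrogen 51 h replicate 1, which stood apart.

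The loci just inside and just outside the limits show how the set was bounded. At 27 h the lowest locus inside was Locus_3469 with a log2 ratio of 2.06 of no nitrogen to nitrate, and Locus_7563 missed it at 1.99. At 51 h these were Locus_14084 at 2.07 and Locus_1634 at 1.98. For the level without nitrogen they were Locus_8940 at 100.4 and Locus_12000 at 87.7 normalized counts. For glutamine at 51 h they were Locus_10176 at 1.01 and Locus_11274 at 0.97, and for glutamine at 3 h Locus_11359 at -0.87 and Locus_10078 at -1.03.

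In all, 90 loci reached both limits for no nitrogen and 79 of them also the level, and 72 of these reached the limit for glutamine at 51 h, of which 5 were lost to the limit at 3 h. Among all loci, 320 were at or over the limit for glutamine at 51 h. Only 6 loci met every limit but that for glutamine at 51 h, with log2 ratios of glutamine to nitrate from 0.55 to 0.97. In the comparisons outside the rule they stood beside the set: 6 of 6 rose in glutamate from 3 to 27 h and 6 of 6 were higher than in the inoculum, with median log2 fold changes of 2.06 and 1.81 against 2.43 and 2.52 in the set. All 6 were lower in glutamine than in glutamate at 27 h, at a median of -2.30 against -2.69. The difference between the lists was not tested.

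The spread between replicates differed by group. The median coefficient of variation over the 67 loci was lowest without nitrogen at 51 h, at 12.0%, and highest in the inoculum, at 29.6%. It was 14.0% to 14.9% in glutamate at 27 and 51 h and without nitrogen at 27 h, and 25.4% and 21.5% in no nitrogen and glutamate at 3 h. Over the 3 times it was 15.5% to 20.9% in glutamine and 18.4% to 25.2% in nitrate. The highest in glutamine at 51 h was 100.2% at Locus_8940, and that without nitrogen at 51 h was 77.2% at Locus_18036.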

How the data were processed

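RNA of 39 libraries was sequenced, 3 in each of 13 groups taken from the sample labels. Per the labels' protocols, ribosomal RNA was depleted and strand-specific libraries were read single-end in 2 runs. Tools listed in the submitters' processing notes, without roles, are edgeR 3.4.0, RSEM, STAR and FastQC. The sources used here give no genome build, annotation or strand setting. The authors deposited read counts, whole numbers per locus, and TPM values, scaled by the authors for length and depth. Every column matched a sample title. Counts of loci that share sequence may be split between them.

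The 67 loci and the lists were chosen with earlier results of these data known. Normalized counts are counts divided by median-of-ratios size factors, which ranged from 0.233 to 4.00. Tests used edgeR 4.0.16 in R 4.3.3 (quasi-likelihood, filterByExpr on groups, TMM factors from 0.617 to 2.16, a mean per group over all 39 libraries). Of 18495 loci 17569 were tested and 926 were left out, which held 0.0235% of the counts, and p-values were adjusted over all tested loci by Benjamini-Hochberg at a threshold of 0.05. Standard errors are derived from the fold change and the F value and are approximate. Tests cover the 6 comparisons in which neither group entered the rule.

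Loci were named as follows: in each test the 2 largest rises and the 2 largest falls among called loci whose groups did not overlap and averaged at least 10 CPM, the 2 with the highest TPM without nitrogen at 27 h, the 2 highest and the 2 lowest in glutamine relative to no nitrogen at 51 h and in the position at 27 h, and the loci next to each limit. Others are said to be named after their values were seen.

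The labels tie the inoculum and the cultures of a replicate number to a shared repeat, which makes the libraries of a number a pair or block. Deviations from group means correlated at 0.0964 on average between libraries of the same number and at -0.0477 between others, and of the 234 pairs with a shared number 49.6% exceeded 0.1. The test left the pairing out, and a replicate block was an alternative. Other alternatives were RLE scaling, no filter, DESeq2 1.42.0, run as a covariate, the compared libraries alone, each run alone, the fits without each library or without the 3 that stood apart, and limma 3.58.1 on log2 TPM with a pseudocount of 1 or 0.1. The fits were tested on simulated counts.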

Additional observations from a re-analysis of the deposited data

Results flagged for a closer look

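In 11 of the 67 loci the level at 51 h was above that at 27 h in each of the 3 glutamine pairs and below it in each of the 3 glutamate pairs, so that the pairs of the 2 media lay in opposite directions. They are Locus_203, Locus_2410, Locus_3039, Locus_3697, Locus_5986, Locus_6425, Locus_9090, Locus_11359, Locus_12170, Locus_14071 and Locus_14455. In 6 of these, Locus_203, Locus_3039, Locus_3697, Locus_5986, Locus_11359 and Locus_12170, the level at 51 h was also below that at 27 h in each of the 3 pairs without nitrogen. Of the 65 loci of the set that were higher in each glutamine pair, 16.9% were lower in each glutamate pair, and of the 3851 such loci among all those tested 23.9% were. For the pairs without nitrogen these shares were 9.23% and 15.5%. Among loci higher in each glutamine pair, neither pattern was thus more frequent in the set. Lower in the pairs of both media were 9.23% of the 65 and 7.82% of the 3851. Of all 17569 loci tested, 5.25% showed the glutamate pattern, 3.4% that without nitrogen and 1.71% both. The 11 and 6 of 67 are larger shares than these, but glutamine at 51 h chose the loci, so nothing is read from them. The difference between the media was not tested, since glutamine at 51 h and no nitrogen chose the loci, and in glutamate none of the 11 was called lower by edgeR. Locus_203 went from 199, 146.3 and 173.8 to 1433, 1452 and 1887 normalized counts in glutamine and from 2662, 2355 and 2656 to 1554, 1486 and 1598 in glutamate.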

How the results depend on the processing

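With 67 loci called in each of the 3 comparisons that moved the whole set, leaving out a library gave 67 to 67 calls for glutamate 27 h against 3 h, 65 to 67 against the inoculum and 67 to 67 for glutamine against glutamate at 27 h. The other comparisons rest on fewer calls. For glutamate 51 h against 27 h (3 loci) limma on log2(TPM + 0.1) gave 0, each run alone 0 and 0, and leaving out a library 1 to 2. That limma scaling moved the median of all loci by 0.56. For glutamine 27 h against the inoculum (26 loci) limma gave 5 and 5, with most of them higher instead of lower, run 2 alone 9, and leaving out a library 16 to 26. For no nitrogen 3 h against the inoculum (11 loci) limma gave 1 (higher) with a pseudocount of 0.1 and 0 with 1, run 1 alone 6, run 2 alone 0, and leaving out a library 7 to 12. Runs alone have fewer libraries, and where a library is alone in its group it is assumed to vary like the others. The cause of the remaining shifts was not tested. With the replicate block, which pairs libraries by number, 67 loci were called in each of the 3 comparisons named first, 4 for glutamate 51 h against 27 h, 29 for glutamine 27 h against the inoculum and 16 for no nitrogen 3 h against the inoculum, among them all called without it, and it changed no other call of a named locus. Of 100 alternative counts 82 stayed within 1.5 times and kept their direction. Of 266 alternative values for named loci 235 kept their call and 31 lost it, and 0 changed sign. The number of loci in the set was 63 to 69 without a library of the 7 groups, 67 with TMM scaling, and 81 (63 shared) with 1 added in place of 10. It was 13 (11 shared) on TPM with the limit on the level dropped and 10 still added to each mean. Without nitrogen at 27 h the 67 loci had a median of 31.1 TPM, against 448.6 to 499.2 normalized counts by library. The added 10 therefore weighs more on TPM. This alternative changes several choices at once, and the cause was not tested.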
